A study of Mus musculus with 2 samples.

Results

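The complement genes C3, C4b, C2, Cfb, Cfi, C3ar1, C5ar1, Cd55 and Cd59a were followed in purified mouse collecting duct cells after deletion of Gata2, a zinc finger transcription factor gene. Their probes were chosen as the non-control probes whose gene name in the scanner files is 1 of these 9 symbols, which gave 14 of 41173 probes and 9 of 30198 gene names on the array. The genes were picked with earlier results of these same arrays known, so their values are a description.

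The Gata2 CKO group had the genotype Gata2flox/-::Pax8-rtTA::Tet-Cre, in which Cre recombinase is switched on by doxycycline in Pax8-expressing renal tubule cells. The WT group was labelled only as wild type. One Gata2 allele was thus absent in all cells of the CKO mice, and the WT label names neither rtTA nor Cre. Mice of both groups were 8 weeks old and of mixed sex, with doxycycline given for 4 weeks from an age of 4 weeks per the treatment text, which stands with both samples. Cells were purified with the lectin DBA, which binds collecting duct epithelium, and magnetic beads, and RNA was hybridised to 1 one-colour array per group. The series mentions 3 mice in each genotype, and each array is named as a mix, so the arrays may be pools.

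Complement is a cascade of plasma proteins that tags and lyses targets and releases inflammatory peptides. The classical pathway (C1q, C1r, C1s) and the lectin pathway cleave C4 and C2 into a C3 convertase, the alternative pathway builds another from C3 and factor B, and C5 to C9 form the membrane attack complex. Host cells are protected by soluble regulators such as factor I and C1 inhibitor, and by membrane proteins such as CD55 and CD59. The liver makes most plasma complement, and renal tubule epithelium is known to make C3 and other components locally.

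The probes on which the findings rest are DNA oligomers of 60 bases, placed on mm9 by the files. They are shown because each value below is the brightness of 1 such sequence. The gene is followed by the position of the probe in the transcript, the mm9 location and the strand. No base is in capitals, since the whole oligomer is the measured target. The C3 probe at 646, the C2 probe at 2152 and the Cfb probe, span 158, 176 and 357 bases of genome and so lie across exon junctions. Whether a probe lies in coding or untranslated sequence was not analysed here.
C3, position 646, chr17:57364538-57364695 (-): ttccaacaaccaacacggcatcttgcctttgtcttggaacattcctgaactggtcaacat
C3, position 5053, chr17:57343416-57343475 (-): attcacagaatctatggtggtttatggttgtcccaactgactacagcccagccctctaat
C2, position 2152, chr17:35000126-35000301 (-): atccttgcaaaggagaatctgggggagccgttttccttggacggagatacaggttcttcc
C4b, position 4853, chr17:34866361-34866420 (-): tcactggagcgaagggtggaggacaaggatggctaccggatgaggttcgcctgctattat
Cfb, position 2504, chr17:34993502-34993858 (-): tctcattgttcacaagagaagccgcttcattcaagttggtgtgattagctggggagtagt
Cd59a, position 349, chr2:103954170-103954229 (+): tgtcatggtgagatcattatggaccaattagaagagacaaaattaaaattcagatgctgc

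Signals below are the background-subtracted intensities of the scanner software. The 75th percentile of the non-control spots was 250.1 on the CKO array and 314 on the WT array, and every difference is CKO minus WT of log2 signal after each array was set to that percentile. A signal ratio alone is therefore not the fold. The error after ± is the software's error for the spots of both arrays. It does not cover mice, purification or labelling, and with 1 array per genotype no test was possible and no p-value is given. The arrays shared 1 slide and 1 scan. Gata2 itself was lower at both probes, by −0.37 ± 0.20 and −0.32 ± 0.20, but these probes lie far along the transcript and the labels do not give the deleted exons, so they do not check the labels. Differences are taken within a probe. Brightness between probes serves only to choose a probe per gene and to sum marker lists.

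C3, which encodes the protein on which all pathways converge, showed the widest gap of the 9 genes. Its probe at 5053 was printed 10 times. The CKO spots had signals of 853, 899 and 988 (lowest, median and highest), against 10470, 11548 and 12138 for the WT spots, so the 2 sets were far apart. The difference was −3.32 ± 0.20, a 10-fold lower signal in CKO cells. Taken spot by spot it ran from −3.41 to −3.27 with an SD of 0.06 over the 10 positions. The second C3 probe, toward the 5′ end of the transcript, had a signal of 11.0 on the CKO array, not well above background, against 65.4 on the WT array. It was therefore at least 4.50-fold lower in CKO cells, a bound set by the dimmest CKO spot that the software called well above background. With normexp this dim probe was at −0.54, short of 2-fold, while the probe at 5053 was at −3.29. Of the 26858 measured probes, those called well above background for CKO, WT or both, 34 had a difference at or below that of the C3 probe at 5053.

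Cfb encodes factor B, the serine protease that joins C3b in the alternative pathway convertase. Its 1 probe had a signal of 382 on the CKO array and 560 on the WT array. The difference was −0.22 ± 0.20, about the size of the spot error. The transcript of this convertase partner thus showed little of the gap seen for that of C3.

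C2 encodes the protease of the classical and lectin pathway convertase and lies beside Cfb on chromosome 17. The C2 probe at 2152 had a signal of 20.7 on the CKO array and 82.6 on the WT array, a difference of −1.67 ± 0.27. The probe at 2556 had 114 on the CKO array and 344 on the WT array, a difference of −1.26 ± 0.21. By both probes C2 was lower in CKO cells, 3.18-fold and 2.40-fold. With normexp background correction these differences were −0.59 and −0.93, short of 2-fold.

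C4b encodes C4, whose fragment anchors C2 on a target. Its dim probe had a signal of 14.3 on the CKO array and 24.4 on the WT array, a difference of −0.44 ± 0.34. With normexp the sign turned, to 0.11. C4b and C4a are near-identical copies, and a probe may not tell them apart. The probe named for C4a, with signals of 2.98 on the CKO array and 5.81 on the WT array, was well above background on neither.

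**Figure D1:**
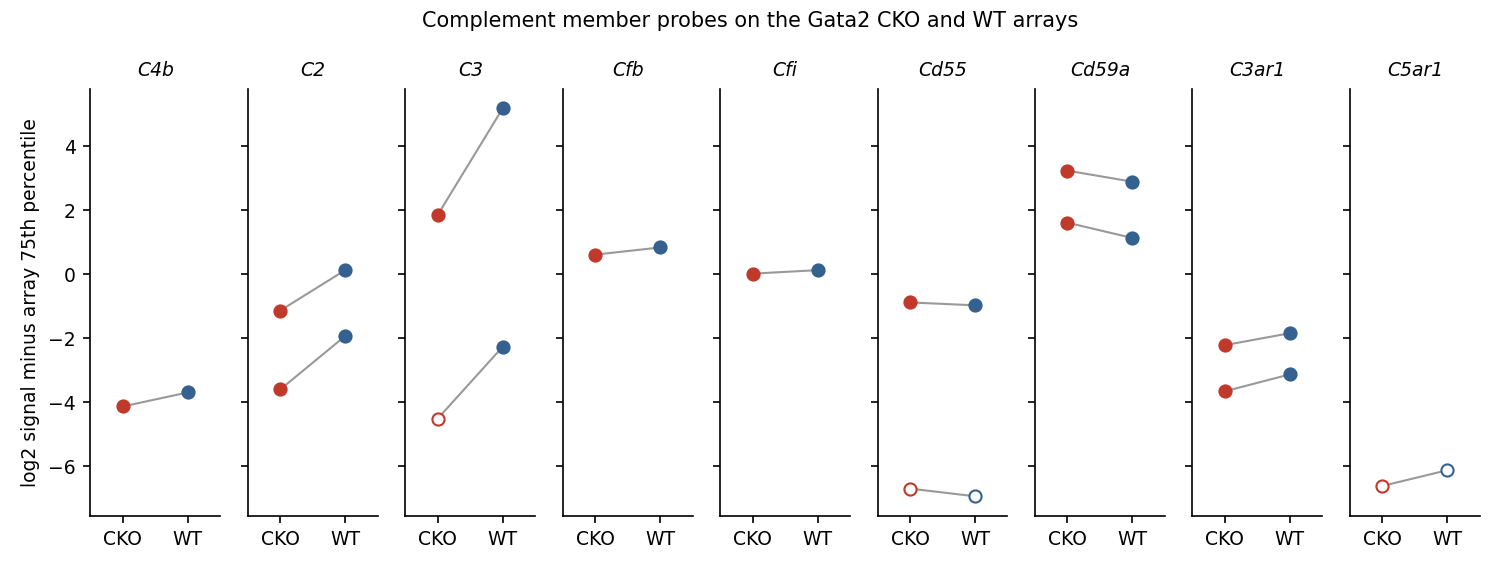
Each panel is 1 of the 9 complement genes, and each line joins the log2 signal of 1 probe, relative to the 75th percentile of its array, on the CKO array (red, left) and on the WT array (blue, right). Open points were not well above background. The lines of C3 and C2 climb steeply toward WT, those of Cd59a slope the other way on this scale, and C5ar1 was measured on neither array.

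The regulators among the 9 genes did not share the low values of C3 and C2. Cfi encodes factor I, the protease that inactivates C3b and C4b. Its probe had a signal of 253 on the CKO array and 343 on the WT array, a difference of −0.11 ± 0.20, within the spot error. Cd55, decay accelerating factor, dissociates C3 convertases on the cell surface. Its probe at 1148 had 136 on the CKO array and 160 on the WT array, a difference of 0.09 ± 0.21, also within the error. Another probe named for Cd55, at chr1:132288024-132288083 on mm9, was well above background on neither array, with signals of 2.42 on the CKO array and 2.58 on the WT array. Its location falls inside the genomic span of the probe named for another gene, Cd55b, and outside that of the Cd55 probe at 1148. It may therefore not read Cd55.

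Cd59a encodes CD59, which blocks the last step of membrane attack. Its probe at 349 had a signal of 763 on the CKO array and 688 on the WT array, and the probe at 867 had 2351 on the CKO array and 2324 on the WT array. After scaling, the differences were 0.48 ± 0.20 and 0.35 ± 0.20, higher in CKO cells by both probes, 1.39-fold and 1.27-fold. When the arrays were set instead on their spike-in controls these values were −0.07 and −0.20, and that of Cd55 was −0.46. The median of all probes was −0.49 on that scale and 0.05 on the percentile scale, and Cd59a and Cd55 lay above it on both. Relative to the array as a whole, Cd59a was on the higher side and C3 and C2 were far on the lower side.

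The receptors of the small activation peptides were dim. C3ar1 encodes the C3a receptor, found mainly on myeloid cells. Its probe at 2701 had a signal of 19.9 on the CKO array and 36.0 on the WT array, and the probe at 3175 had 53.9 on the CKO array and 87.7 on the WT array. The differences were −0.53 ± 0.31 and −0.37 ± 0.23, with −0.07 and −0.10 under normexp. C5ar1, the C5a receptor, had signals of 2.56 on the CKO array and 4.53 on the WT array, well above background on neither, so no difference is given.

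Over the 9 genes, 12 of the 14 probes, from 8 genes, were measured. Of these 12 probes 9 were lower and 3 higher in CKO cells, and 4, from C3 and C2, were at least 2-fold lower. None was at least 2-fold higher. Among all 26858 measured probes 2.49% were at least 2-fold lower, 1.37% at least 2-fold higher and 41.4% lower than 0. The genes were chosen with this comparison known, so nothing is read from the excess. The median of the 12 probes was −0.40, beside 0.05 for all probes. With normexp 1 probe was at least 2-fold lower in place of 4 and the median was −0.10. Of all probes 0.856% were then that much lower, with a median of 0.08.

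**Figure D2:**
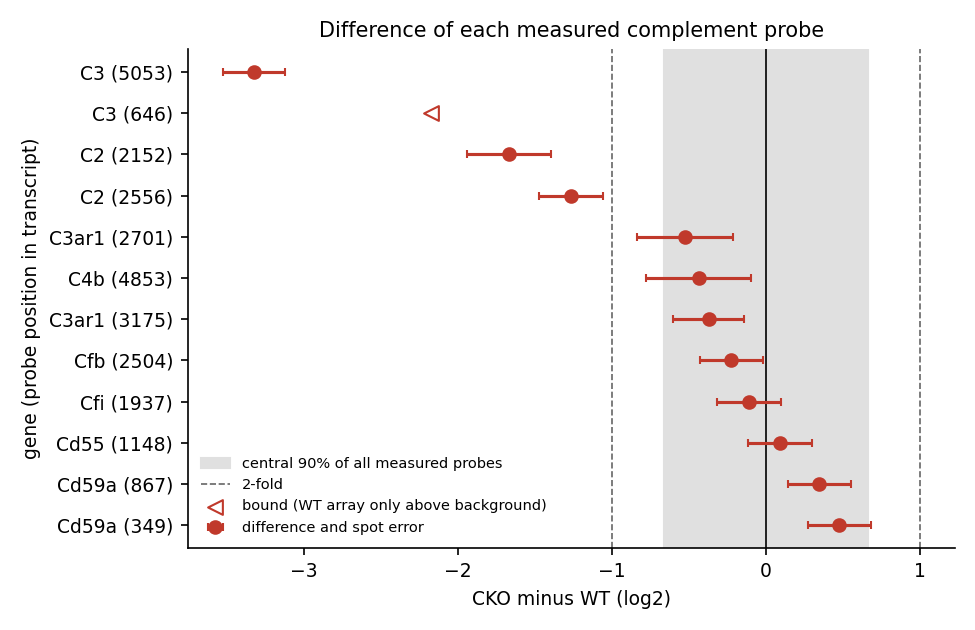
Each row is 1 measured complement probe (gene and position in the transcript), with the CKO minus WT difference on the log2 axis. Bars are the spot error, the open triangle is a bound and the grey band holds the central 90% of all measured probes. Both C3 and both C2 probes lie left of the 2-fold line, and the other 8 probes lie inside the band.

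The next question was how the rest of the system compared. A list of 46 other complement genes was drawn up by textbook role. It too was chosen with earlier results of these arrays known, so nothing is read from any excess. All 46 genes had a probe, and 26 were measured. Each gene takes the value of its brightest such probe. Of the 26 genes 19 were lower and 7 higher in CKO cells, and 7 were at least 2-fold lower and none at least 2-fold higher. Over all 18972 measured genes 42.1% were lower than 0, 2.84% at least 2-fold lower and 1.49% at least 2-fold higher. The median of the list was −0.71, beside 0.04 for all genes. With normexp no gene of the list was at least 2-fold lower and the median was −0.48, beside 1.08% and 0.06 for all genes. Scaling on the spike-in controls put 15 genes of the list at least 2-fold lower, with a median of −1.25, beside 8.65% and −0.50 for all genes. Counting every probe that was positive and significant gave a median of −0.31. Dim genes are drawn toward 0 by normexp.

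Of the genes that start the classical and lectin pathways, 7 of 8 measured were lower. C1q, the recognition molecule, is made of 3 chains. C1qa had a signal of 1249 on the CKO array and 2734 on the WT array. C1qb had 1316 on the CKO array and 2805 on the WT array, and C1qc 1829 on the CKO array and 3582 on the WT array. The differences were −0.80, −0.76 and −0.64, each ± 0.20, so all chains were lower by a like amount. C1ra and C1s encode the proteases that C1q activates, and their probes gave −1.84 and −1.40. C1ra had signals of 29.5 on the CKO array and 133 on the WT array, and the C1s probe 36.2 on the CKO array and 120 on the WT array. A second C1s probe, above background for WT alone, was at least 1.90-fold lower. Both genes have near-identical copies in the mouse, and the probe of the copy C1rb gave −0.30 ± 0.32. Masp1, a protease of the lectin pathway, was at −2.08 by 1 probe, with 21.9 on the CKO array and 116 on the WT array. Its other 3 probes were well above background on neither array, which leaves this value uncertain. Masp2, another protease of that pathway, had 18.8 on the CKO array and 21.1 on the WT array, a difference of 0.16 ± 0.33, within the spot error. The lectins and ficolins Mbl1, Mbl2, Fcna, Fcnb, Colec10 and Colec11 were not well above background.

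Soluble regulators were lower for all 5 measured of 8. Serping1, the C1 inhibitor, which blocks C1r and C1s, had a signal of 21.6 on the CKO array and 85.8 on the WT array, a difference of −1.66 ± 0.26. Cpn1, the catalytic chain of carboxypeptidase N, which trims C3a and C5a, was at −2.71, with 13.7 on the CKO array and 112 on the WT array. Clu, clusterin, which keeps the attack complex out of membranes, had 7546 on the CKO array and 16843 on the WT array, a difference of −0.83 ± 0.20. The 5 measured genes ran from −2.71 to −0.32, with a median of −0.92. Cfi, the soluble regulator among the 9 genes, was at −0.11 ± 0.20, above that range but not far from its upper end.

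Apart from Cd59b, the membrane regulators were close to the array as a whole. All 4 measured of 6, Cd59b among them, were above 0, with 42.1% of all genes below it. Their median was 0.18 beside 0.04. None was 2-fold apart. On the spike-in scale 3 of the 4 were below 0, with a median of −0.36 beside −0.50 for all genes. Cd59b, the second mouse CD59 gene, was at 0.61 and 0.98 by its 2 probes, with 93.9% and 98.5% of all measured probes at or below these values. The brighter had 667 on the CKO array and 548 on the WT array. Cr1l, called Crry, the broad C3 convertase regulator of mouse cells, had 436 on the CKO array and 502 on the WT array, a difference of 0.13 ± 0.20. Cd46 at 0.18 ± 0.34 and Susd4 at 0.18 ± 0.20 were within the spot error too. Near-identical sequence shared by Cd59a and Cd59b may let a probe read both.

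Of the receptor genes 6 of 7 measured were lower. Itgam, the alpha chain of complement receptor 3, was at −1.47, with 16.3 on the CKO array and 56.6 on the WT array. Cr2, complement receptor 2, was at −1.16 by 1 probe and −0.16 by the other, so its probes disagree. Of the alternative pathway, Cfp, properdin, was at −0.27 ± 0.20 and Cfd, factor D, was not well above background. The terminal pathway was barely seen. C8g alone of its 7 genes was well above background, at 0.35 ± 0.24, and Hc, which encodes C5, C6, C7, C8a, C8b and C9 were not.

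**Figure D3:**
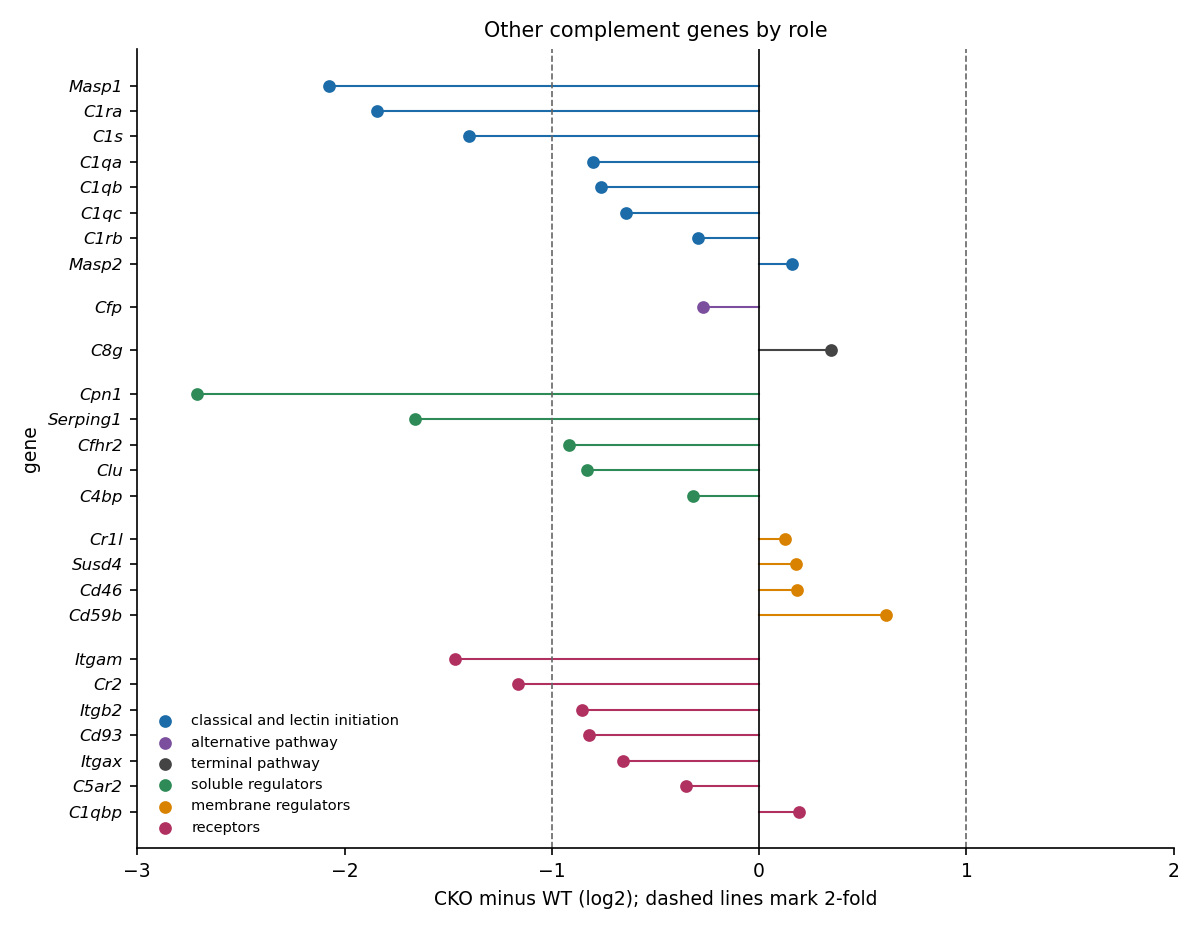
Each row is 1 of the 26 measured complement genes outside the 9, grouped and coloured by role, with its CKO minus WT difference on the log2 axis and dashed lines at 2-fold. Masp1, C1ra, C1s, Cpn1, Serping1, Itgam and Cr2 lie left of the 2-fold line, Masp2 lies near 0, and the 4 membrane regulators lie to the right of 0, where 3 of them do not stay on the spike-in scale.

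Several of these genes are markers of cells other than collecting duct epithelium, so the marker lists are given beside them. All 16 macrophage and dendritic cell markers were measured and lower, with a median of −0.76 and values from −1.26 to −0.25, the lowest being lysozyme, Lyz2. Their summed signal, in units of the 75th percentile of each array, was 55.5 on the CKO array and 109 on the WT array. C1qa, C1qb and C1qc and both C3ar1 probes fell inside the range of that list, and both C3 probes and the C2 probe at 2152 lay below all 16 markers. The C2 probe at 2556, at −1.26, was level with the lowest of them. The C1q and C3ar1 values also fell inside the ranges of other lists, though for C1qa the endothelial range reached that far only through Vwf. Those ranges were −1.47 to 0.05 for fibroblasts and pericytes, −1.78 to −0.01 for endothelium and −1.58 to 0.46 for proximal tubule. Of 9 fibroblast and pericyte markers 8 were measured, with a median of −0.69 and Pdgfrb at −1.47. The summed signal of that list was 26.2 on the CKO array and 32.1 on the WT array, and Pdgfra was not well above background. Acta2 weighed most in these sums. Before scaling, its brightest probe gave 4070 of 6547 on the CKO array and 4957 of 10087 on the WT array. That probe was at 0.05, and other Acta2 probes ran from −1.16 to a bound of 0.59, so they disagree. Endothelial markers had a median of −0.33 over 8 of 9 and proximal tubule markers one of −0.24 over 8. The lowest of each were Vwf at −1.78 and Lrp2 at −1.58. Vwf was dim, with 14.7 on the CKO array and 63.1 on the WT array. The next lowest endothelial marker, Cdh5, had a bound of −0.76. Other measured Lrp2 probes ran from −1.20 to −0.26. Of the proximal tubule markers 7 were lower and 1, Slc22a6, was higher, at 0.46. The endothelial sums were 0.929 on the CKO array and 1.30 on the WT array, and the proximal tubule sums 10.4 on the CKO array and 13.4 on the WT array.

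The cells carried the markers of collecting duct on both arrays. All 8 principal cell markers were well above background, with a median of −0.34, as were all 7 intercalated cell markers, with a median of 0.90 and Atp6v1b1 at 1.94. Neutrophil markers were sparse, with 2 of 5 measured, both for WT alone, among them S100a9, and of 3 mast cell markers only Kit was measured. Of 5 urothelium markers 2 were measured, Krt5 at −0.68 and Upk1a at 0.76. The part of these other cells in the complement values was not tested. Fewer cells of a type and less RNA per cell cannot be told apart.

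**Figure D4:**
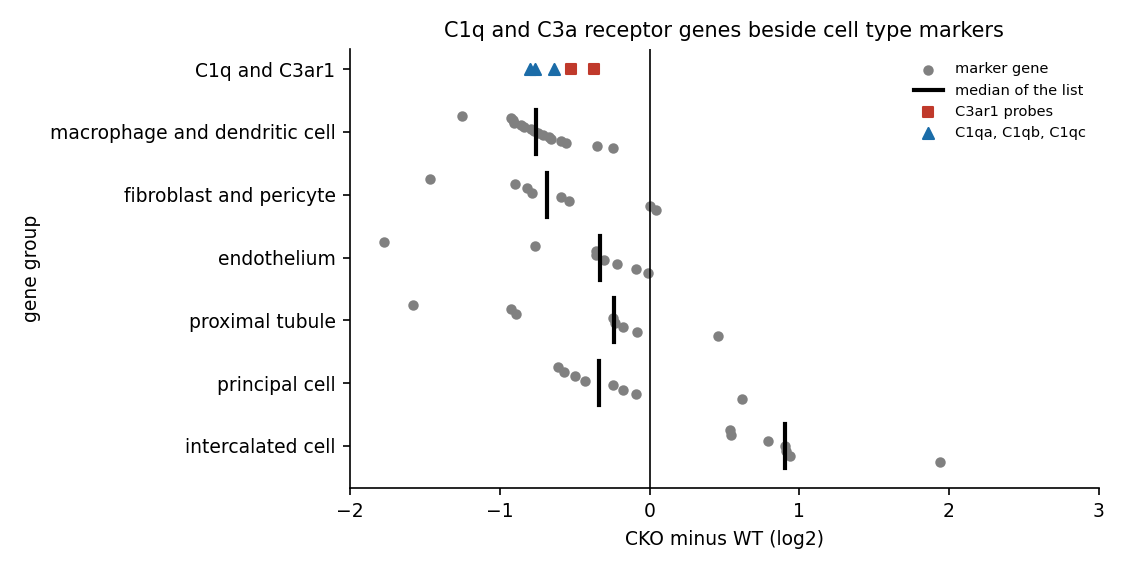
Each row is a gene group, each point 1 gene (C3ar1 has 2 probes), and the axis is the CKO minus WT difference in log2, with a black bar at the median of each marker list. The C1q and C3a receptor values overlap the macrophage and dendritic cell, fibroblast and pericyte, endothelium and proximal tubule lists. The intercalated cell list lies to the right of 0.

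Complement genes are induced by cytokines, and 18 genes of such signals were examined. Of 16 measured 12 were lower and 4 higher, with a median of −0.14, beside 42.1% of all genes below 0 and a median of 0.04. A single one, Osmr, the oncostatin M receptor, passed 2-fold, and 2.84% of all genes were that much lower. Osmr was above background for WT alone and at least 2.25-fold lower in CKO cells. Its other probe was well above background on neither array. Next were Socs3, a feedback inhibitor of cytokine signalling, and Il1b, the cytokine interleukin-1 beta, both bright and named after their values were seen. Socs3 had a signal of 717 on the CKO array and 1651 on the WT array, a difference of −0.87 ± 0.20. Il1b had 176 on the CKO array and 395 on the WT array, a difference of −0.83 ± 0.21. Other bright genes of the list moved little, with Stat3 at 0.00, Ifngr1 at 0.11, Tnfrsf1a at 0.03, Irf1 at −0.06 and Cebpd at −0.07. Il6 and Tnf were not well above background.

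Position was not used in choosing the genes, but their values were known, so this comparison too is a description. C2, Cfb and C4b lie in the class III region of the MHC on chromosome 17, and C3 lies farther along the same chromosome. The probe of Cfb ends 5.72 kb from the nearer C2 probe, and the C4b probe lies 127 kb from that of Cfb. Of 33 other named genes with a probe within 200 kb of these, 28 were measured, with a median of 0.00, and 14 were lower and 14 higher. Over all measured genes the median was 0.04, with 42.1% lower than 0 and 2.84% at least 2-fold lower. The heat shock genes Hspa1a and Hspa1b, near-identical copies that encode HSP70, were the 2 at least 2-fold lower, at −1.56 and −1.63. The other 26 lay between −0.48 and 0.52. The values of C2 were lower than those of Cfb beside it and of those 26 neighbours. Hspa1a and Hspa1b lay below the C2 probe at 2556, at −1.26, and above the C2 probe at 2152, at −1.67. C2 was chosen with its values known, so nothing more is read from this.

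**Figure D5:**
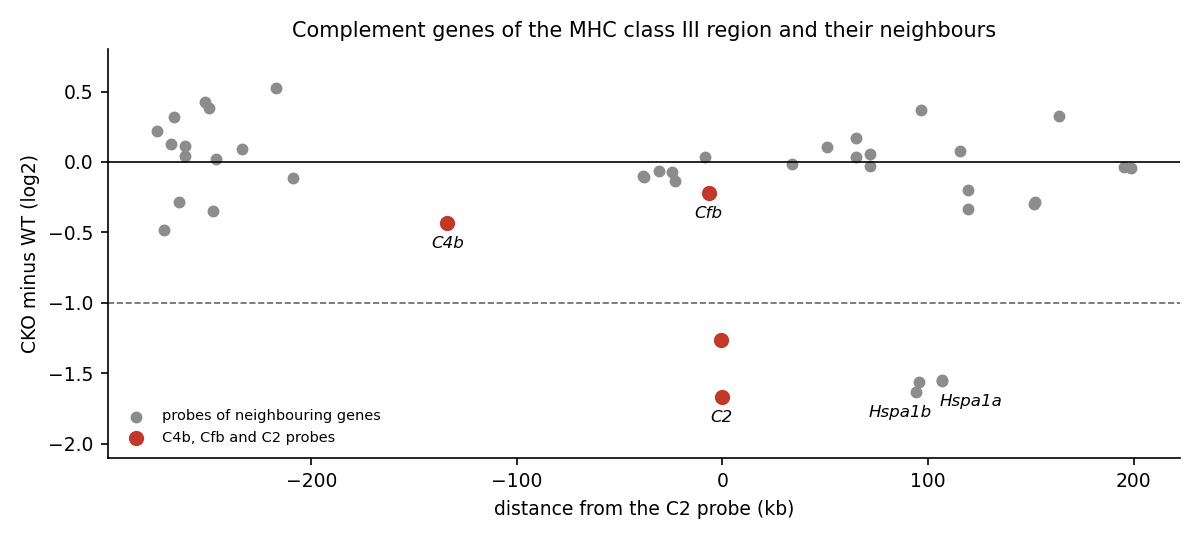
Probes of the class III region are placed by their distance in kb from a C2 probe, with the CKO minus WT difference in log2 on the vertical axis, red for C4b, Cfb and C2 and grey for neighbouring genes. The C2 probes and those of Hspa1a and Hspa1b lie below the dashed 2-fold line, and every other probe lies above it.

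The C3 promoter is shown because C3 had the widest gap. RefSeq promoters on GRCm38.p6 were found for 5 of the 9 genes, C3, C3ar1, C5ar1, Cd55 and Cd59a, and the 250 bases before the start site were searched on both strands for 5 motifs. The capitals mark a match to TTGCNNAA, of the C/EBP family, 45 to 38 bases before the start.
C3 promoter, GRCm38.p6 chr17:57228137-57228386 (-): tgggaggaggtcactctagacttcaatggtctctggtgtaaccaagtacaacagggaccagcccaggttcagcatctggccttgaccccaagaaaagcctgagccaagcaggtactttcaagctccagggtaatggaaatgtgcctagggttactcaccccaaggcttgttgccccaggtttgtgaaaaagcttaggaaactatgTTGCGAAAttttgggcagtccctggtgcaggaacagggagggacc

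Of the 5 promoters C3 alone held TTGCNNAA, which 9.56% of all 32851 windows of the same length hold. GAAANNGAA, of interferon response factors, was in C5ar1 and Cd59a and in 7.13% of windows. The letters AGATAA, bound by factors of the same family as the deleted gene, were in C3ar1, with 2 matches, and in 9.99% of windows. The STAT motif TTCNNNGAA and the NF-kB motif GGAANTTCC were in none of the 5, and in 7.02% and 0.813% of windows. The matches depend on the letters chosen, and the forms given here were settled after matches of other forms had been seen. Of 4 forms tried for NF-kB, the loosest, of 10 letters with 4 of them free, matched C3 3 times and Cd55 once, and 17.6% of windows. The other 2 forms not given here matched none of the 5 promoters, and 0.356% and 3.15% of windows. A longer interferon form, with an A added at its end, matched Cd59a alone, and 2.98% of windows. No matches to different motifs among the 5 given overlapped. A match is a run of letters, not a shown binding site, and nothing follows from its absence in this window.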

How the data were processed

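The authors deposited spot intensity values, linear and not scaled between arrays. They came from Agilent Feature Extraction 10.7.3.1 with background subtraction and detrending, and probe positions are those of mm9, per the file headers. For scaling between arrays, the authors' method is not stated in those headers. Per the labels' protocols, Cy3-labelled RNA was made from 50 ng.

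Each array had 43379 non-control spots, of which 73 on the CKO array and 66 on the WT array were left out as outliers. None was saturated. Log2 signal was set to the 75th percentile of each array and spots of a probe were averaged. A probe was measured when the software called it well above background for either genotype. Where it did so for 1 genotype alone, the difference is a bound against the higher of the probe's own signal and the lowest signal well above background, 11.6 on the CKO array and 12.0 on the WT array. RefSeq accessions of 26867 probes gave current symbols. Members and lists were chosen with earlier results of these data known. The text names all members, set genes of each role, except 1 that is not reported here, and those at least 2-fold apart. The forms of the NF-kB and interferon motifs were changed after their matches had been seen. The steps were tested on simulated data. Tools were R 4.3.3, limma 3.58.1, Python 3.11.15, numpy 2.4.6, pandas 2.3.3 and matplotlib 3.10.9.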

Additional observations from a re-analysis of the deposited data

How the results depend on the processing

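There were 8 alternatives. Cyclic loess, quantile normalization, centring on the median of bright probes, keeping outlier spots and both other filters on dim probes moved no member probe they measured by more than its spot error. Normexp with an offset of 50, which draws dim probes toward 0, left 1 member probe at least 2-fold lower in place of 4. It left none of the 26 other complement genes that much lower in place of 7. The shares that much lower were 0.856% of all probes and 1.08% of all genes. The medians were then −0.10 for the members and −0.48 for the other genes. C4b turned to 0.11 and the 5′ C3 probe came to −0.54, but the C3 probe at 5053 stayed at −3.29. Scaling on 8 spike-in transcripts lowered everything. The members' median became −0.95, that of the other genes −1.25 with 15 at least 2-fold lower beside 8.65% of all genes, that of the inducing signals −0.69 and that of the class III neighbours −0.54. Cd55 turned to −0.46 and Cd59a turned to −0.068 and −0.20. Counting probes that were positive and significant gave the other complement genes a median of −0.31. The alternatives for inducing signals and neighbours were added after seeing the data. Leaving out a replicate was not possible with 1 array per genotype. No paired analysis was possible because each genotype has 1 array. Signals near background limit C4b, C3ar1, C5ar1, the 5′ C3 probe and the dimmer C2 probe, which had 20.7 on the CKO array. They also limit most of the other complement genes at least 2-fold lower. Signals on the CKO array were 13.7 for Cpn1, 16.3 for Itgam, 21.6 for Serping1 and 21.9 for Masp1. C1ra had 29.5 and C1s 36.2 on that array, while Cr2 was brighter, with 111.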
